A study of Homo sapiens with 12 samples.

Results

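The genes described here are 9 genes of the FAT cadherin family and of planar cell polarity, FAT1, FAT3, FAT4, DCHS1, CELSR2, PRICKLE1, PRICKLE2, VANGL1 and VANGL2, out of 60107 gene identifiers in the count table. The list was chosen by the values of FAT1 and PRICKLE2, which stood higher with carmofur than with vehicle. The choice names no cell line, so the values of all 9 with carmofur against vehicle are given as a description without a test in both lines, and so are the differences between the lines in the carmofur change. RNA was measured by 3′ RNA-sequencing in 12 libraries, 3 for each of 4 groups: U251P with vehicle (DMSO), U251P with carmofur, U251T with vehicle and U251T with carmofur. U251 is an established human glioblastoma cell line, and carmofur is a small molecule that inhibits acid ceramidase, the lysosomal enzyme encoded by ASAH1 that breaks ceramide down to sphingosine. All 4 groups were starved of serum for 16 h and then kept for 24 h in medium with 10% FBS and either DMSO or carmofur, at a dose the labels do not give. The labels do not spell out the letters P and T, and do not say whether the 3 libraries of a group came from separate cultures, so p-values measure only the spread between these libraries.

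Planar cell polarity is the alignment of cells within the plane of a tissue, and its core proteins sit at cell borders as asymmetric complexes of CELSR cadherins, Frizzled receptors, Dishevelled, VANGL and PRICKLE proteins. FAT and Dachsous are giant atypical cadherins that bind each other between neighboring cells, and they act on polarity and, through the Hippo kinases, on growth. The same proteins are studied in glioma cells for their part in migration, because they act on the actin cytoskeleton and on noncanonical Wnt signaling.

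RefSeq (GRCh38.p14) gave promoter entries for 6 of the 9 genes. The 250 bases before a start site are printed for FAT1 and PRICKLE2, which chose the list, for CELSR2, which had the largest log2 fold change with carmofur in U251T, and for VANGL1, whose carmofur libraries stood lower there. Where RefSeq gives 2 starts, the first entry is shown. FAT1 is shown at chr4:186726697-186726946, minus strand, PRICKLE2 at chr3:64268174-64268423, minus strand, CELSR2 at chr1:109249289-109249538, plus strand, and VANGL1 at chr1:115641720-115641969, plus strand. Capitals mark matches, on either strand, to the SP1 box GGGCGG, the CCAAT box CCAAT and the TEAD motif GGAATG.
FAT1: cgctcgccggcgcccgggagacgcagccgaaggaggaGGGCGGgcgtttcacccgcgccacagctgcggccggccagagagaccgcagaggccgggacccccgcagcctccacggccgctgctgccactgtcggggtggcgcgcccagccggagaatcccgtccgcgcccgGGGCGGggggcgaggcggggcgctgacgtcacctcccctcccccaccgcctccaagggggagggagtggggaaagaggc
PRICKLE2: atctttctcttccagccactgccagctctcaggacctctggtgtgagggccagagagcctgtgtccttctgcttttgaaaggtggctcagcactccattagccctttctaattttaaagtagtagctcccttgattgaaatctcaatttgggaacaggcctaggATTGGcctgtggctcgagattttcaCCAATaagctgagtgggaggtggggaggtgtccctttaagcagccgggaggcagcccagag
CELSR2: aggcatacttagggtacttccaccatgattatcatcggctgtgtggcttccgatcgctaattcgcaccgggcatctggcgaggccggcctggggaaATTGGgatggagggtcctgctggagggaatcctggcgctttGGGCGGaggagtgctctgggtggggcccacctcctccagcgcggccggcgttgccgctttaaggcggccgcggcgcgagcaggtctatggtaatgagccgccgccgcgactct
VANGL1: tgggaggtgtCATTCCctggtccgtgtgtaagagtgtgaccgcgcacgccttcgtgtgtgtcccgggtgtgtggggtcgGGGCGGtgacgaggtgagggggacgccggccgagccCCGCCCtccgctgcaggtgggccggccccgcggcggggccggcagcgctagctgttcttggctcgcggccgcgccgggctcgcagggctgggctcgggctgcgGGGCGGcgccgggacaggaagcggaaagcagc
None of the motifs was found in all 4 windows. The FAT1 window held 2 SP1 boxes, PRICKLE2 held 2 CCAAT boxes and no SP1 box, CELSR2 held 1 of each, and VANGL1 held 3 SP1 boxes and 1 TEAD motif. The second entries, not printed, differed from these: FAT1 held 3 SP1 boxes, PRICKLE2 held no match to any of the 6 motifs, and VANGL1 held 3 SP1 boxes and no TEAD motif. Over 35114 promoter windows of the same length, 42.6% held an SP1 box, 32% a CCAAT box and 11.9% the TEAD motif. None of the 4 windows matched the AP-1 motif TGANTCA, the E-box CACGTG or the TATA box TATAAA, which 6.57%, 6.35% and 10.7% of the windows held. GC content was 78% in the FAT1 window, 75.2% in VANGL1, 64.4% in CELSR2 and 52% in PRICKLE2 (74%, 75.6% and 47.2% in the second entries of FAT1, VANGL1 and PRICKLE2), against a median of 58% over all windows.

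Levels are given in CPM, counts scaled to a library total of 1000000. The U251P libraries held 3295045 to 6350873 counts and the U251T libraries 383633 to 2817379, so that 3 counts amounted to 0.472 to 0.91 CPM in a U251P library and 1.06 to 7.82 CPM in a U251T library. The U251T libraries stood apart from U251P in ways that a drug contrast within a line does not remove. Genes of the mitochondrial genome took 19.5 to 26.2% of counts in U251P and 0.354 to 0.881% in U251T, while nuclear copies of mitochondrial genes took 0.015 to 0.0239% and 1.95 to 3.08%. B2M, the light chain of class I HLA molecules, was at 1544 to 1942 CPM in U251P and at 0.769 to 15.6 CPM in U251T. The glioma stem cell genes SOX2 and NES were at 97.7 to 161 and 376 to 459 CPM in the U251P vehicle libraries. In the U251T vehicle libraries SOX2 had no count and NES did not exceed 1.54 CPM. Of 12 glioma markers, 9 reached 1 CPM in every U251P vehicle library and 6 in every U251T vehicle library. CHI3L1 and OLIG2 had no count in either vehicle group, and S100B had none in U251T. GFAP went the other way, with 0 to 0.303 CPM in U251P vehicle and 54.7 to 83.0 CPM in U251T vehicle, and the summed glioma markers, mostly VIM, were at 4187 to 5212 and 11730 to 14200 CPM. The summed level of 6 fibroblast markers was 18.8 to 20.3 CPM in U251P vehicle, 1957 to 2270 CPM in U251T vehicle and 2596 to 2799 CPM in U251T with carmofur, with LUM at 0 in all of these. Summed leukocyte and endothelial markers did not exceed 21.2 and 1.85 CPM in any library, and epithelial markers lay at 162 to 233 CPM in U251P and 5.32 to 17.7 CPM in U251T. Whether the U251T libraries come from the same cell line as U251P, or from human cells alone, was not tested. Each level in U251T, and each difference between the lines, is that of the libraries so labeled, and what part these features have in it was not tested. In bulk RNA, fewer cells that use a gene and less of its RNA per cell cannot be told apart.

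With vehicle alone the lines differed in which members stood highest. In U251P with vehicle the highest mean levels were those of VANGL1 (59.2 CPM), FAT1 (51.6), PRICKLE1 (42.1), FAT3 (19.6) and CELSR2 (17.7), followed by PRICKLE2 (4.48) and FAT4 (2.89). The ranges of VANGL1 and FAT1, of FAT1 and PRICKLE1, and of FAT3 and CELSR2 overlapped, so the order within these pairs is not set. In U251T with vehicle FAT1 stood first (245 CPM), then PRICKLE2 (117), VANGL1 (67.5), CELSR2 (14.3) and FAT4 (10.1), and the ranges of CELSR2 and FAT4 overlapped. Counts of 3′ tags are not expected to grow with transcript length, so CPM were not divided by length, and whether reads of each gene were captured and mapped equally well was not tested. DCHS1, the Dachsous cadherin that is the ligand of FAT4, had no count in any U251P library. VANGL2, the close relative of VANGL1, had no count in any of the 12 libraries, which allows up to 0.22 CPM in U251P vehicle and 0.64 CPM in U251T vehicle, taking 3 counts over the group.

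**Figure D1:**
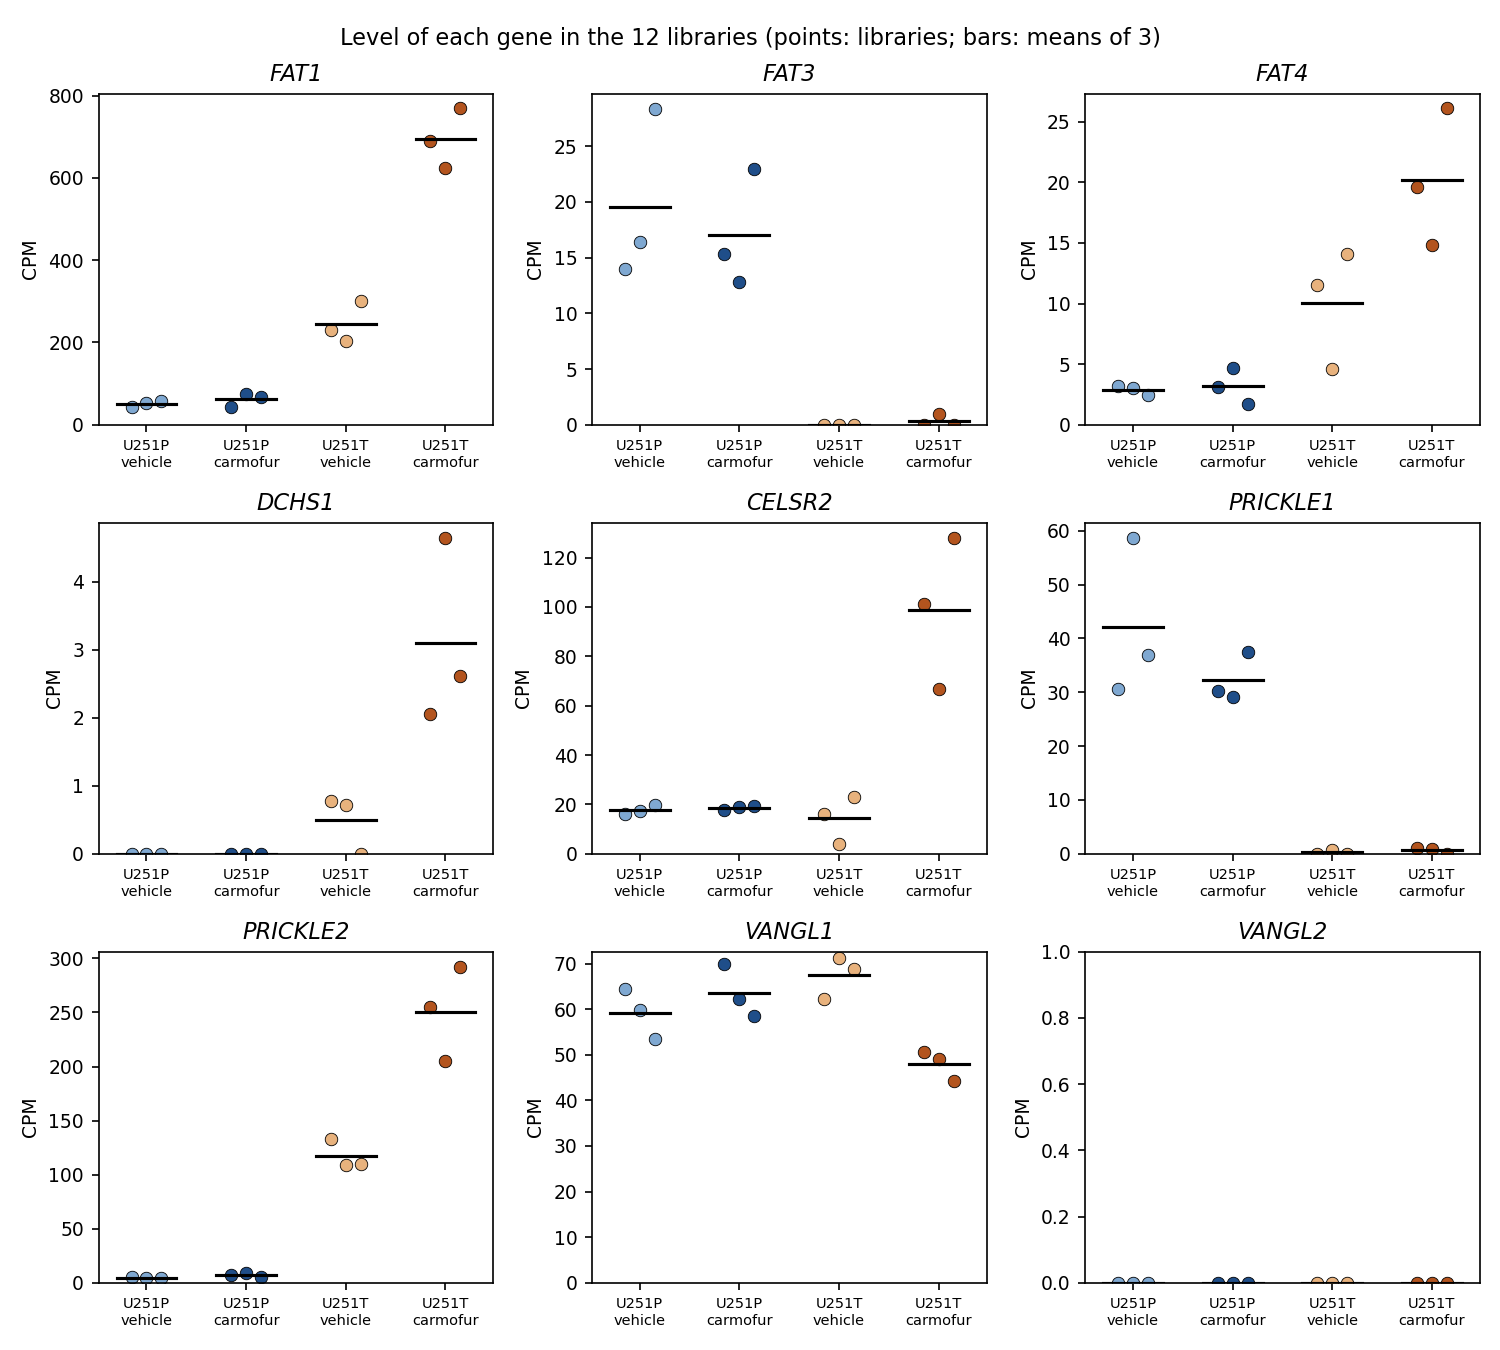
Level of each of the 9 genes in CPM, with 1 point per library and a bar at the mean of the 3 libraries of each group; the vertical axis of each panel starts at 0 and has its own scale. FAT1, PRICKLE2 and CELSR2 are highest in the U251T libraries with carmofur, FAT3 and PRICKLE1 are at or near 0 in U251T, and VANGL2 is at 0 throughout.

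The comparison of U251T with U251P in vehicle asks how far the starting levels of the genes differ, and it was not used to choose them. Of 12047 genes tested with edgeR, 86.9% passed the adjusted threshold of 0.05, 39.3% higher and 47.6% lower in U251T. The groups did not overlap for 86.8% (39.9% higher, 46.9% lower), so that most genes of any kind were called here. Among the 7 members that passed the filter on low counts, FAT1 and PRICKLE2 were called higher in U251T, and CELSR2 and VANGL1 were not called. FAT4 stood higher in U251T, and FAT3 and PRICKLE1 stood lower. FAT3, FAT4 and PRICKLE1 passed the filter only through the group in which they were high, so they are given without a test. The groups of these 5 members other than CELSR2 and VANGL1 did not overlap, as for most genes tested. The median log2 difference of all genes was -0.33.

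FAT1, the FAT gene with the highest level in both lines, was at 43.0, 54.0 and 57.8 CPM in the U251P vehicle libraries and at 230, 204 and 300 CPM in the U251T vehicle libraries. The groups did not overlap, and the log2 difference was 2.16 ± 0.163 (SE, n = 3 against 3, edgeR adjusted p = 5.21e-13). FAT4, the cadherin bound by Dachsous, was at 3.16, 3.03 and 2.47 CPM in U251P and at 11.5, 4.61 and 14.1 CPM in U251T, from 8 to 16 counts per library. It stood higher in U251T by 1.51 ± 0.430 on the log2 scale, given without a test since only U251T carried it past the filter. FAT3, a FAT cadherin of the nervous system, went the other way, with 14.0, 16.4 and 28.3 CPM in U251P and no count in the 3 U251T vehicle libraries. Taking 3 counts over the group as the limit, FAT3 was at least 31.4-fold lower in U251T. A ribosomal protein pseudogene on the other strand within FAT3, RPS3AP42, had 726 counts in U251T and none in U251P. Whether reads were assigned by strand is not given in the sources used here.

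The PRICKLE genes, which encode cytoplasmic LIM domain proteins of the core polarity complex, were exchanged between the lines. PRICKLE1 was at 30.6, 58.6 and 37.0 CPM in the U251P vehicle libraries, and the 3 U251T vehicle libraries together had 2 counts of it. The ratio of U251P to U251T was 93.4, with a 95% counting interval from 25.7 to 773. PRICKLE2 was at 4.94, 3.95 and 4.56 CPM in U251P and at 133, 109 and 110 CPM in U251T. Its log2 difference of 4.64 ± 0.216 (edgeR adjusted p = 7.60e-18) was the largest upward difference among the members. The 3′ ends of both genes lie under a gene on the other strand. PPHLN1, over the end of PRICKLE1, had 2757 counts in U251P and 154 in U251T, and PRICKLE2-AS1, over the end of PRICKLE2, had 2 and 25.

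CELSR2, a cadherin of the adhesion receptor class that holds the core complex together across cell borders, was at 16.2, 17.3 and 19.6 CPM in U251P with vehicle. The U251T vehicle libraries held 16.1, 3.90 and 23.0 CPM and spanned the U251P range. The log2 difference of -0.74 ± 0.380 did not pass (edgeR adjusted p = 0.0691), and without U251T vehicle library 2, the lowest, it was -0.11. VANGL1, a membrane protein with several spans that recruits PRICKLE, was at 64.4, 59.8 and 53.4 CPM in U251P and at 62.3, 71.3 and 68.9 CPM in U251T. These ranges overlapped, and the log2 difference of 0.16 ± 0.167 had an edgeR adjusted p of 0.357.

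The comparison of carmofur with vehicle in U251P asks what the drug did to the same genes in the line where FAT1 and PRICKLE2 were low. No gene of the 11426 tested in U251P with edgeR passed the adjusted threshold (0% called), and 402 had an unadjusted p under 0.05. With DESeq2, run without the filter on 24349 genes, 0 were called and 235 had such an unadjusted p. Of the members 7 passed the filter. The groups did not overlap for 1 of the 7, PRICKLE2, against 8.54% of all genes tested (3.04% higher and 5.5% lower with carmofur).

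PRICKLE2 was at 4.94, 3.95 and 4.56 CPM with vehicle and at 7.24, 8.90 and 5.55 CPM with carmofur in U251P, from 13 to 53 counts per library. Each carmofur library lay above each vehicle library. The log2 fold change was 0.72 ± 0.294 (SE), and it stayed between 0.52 and 0.85 when any library was left out. FAT1 was at 43.6, 74.6 and 66.3 CPM with carmofur, against 43.0 to 57.8 CPM with vehicle. Carmofur library 1 lay within the vehicle range, and the log2 fold change of 0.28 ± 0.188 ranged from 0.09 to 0.50 with a library left out.

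The other 5 members in U251P had overlapping groups. FAT3 was at 15.3, 12.8 and 22.9 CPM with carmofur (log2 fold change -0.23 ± 0.270, and 0.19 without vehicle library 3). FAT4 was at 3.15, 4.70 and 1.69 CPM (0.21 ± 0.415, and -0.19 without carmofur library 2). PRICKLE1 was at 30.2, 29.2 and 37.4 CPM (-0.34 ± 0.200, and -0.06 without vehicle library 2). For these 3 genes a single library thus set most of the difference. CELSR2 was at 17.6, 19.0 and 19.5 CPM with carmofur, a log2 fold change of 0.10 ± 0.173, and VANGL1 at 69.9, 62.2 and 58.4 CPM, a log2 fold change of 0.13 ± 0.118. These 2 had the narrowest errors of the members in U251P.

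In U251T, carmofur was compared with vehicle in the same way. edgeR called 17.1% of 7204 genes in this contrast, 8.88% higher and 8.2% lower, and the groups did not overlap for 32.3% of genes. Of the 9 members, 5 passed the filter, CELSR2 and FAT4 only through the carmofur group, in which they were high. The groups overlapped for none of the 5. FAT1, CELSR2, PRICKLE2 and FAT4 stood higher with carmofur and VANGL1 stood lower. Nothing about the members is read from these counts, since the rise of FAT1 and PRICKLE2 with carmofur chose the list and the choice names no line.

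FAT1 was at 230, 204 and 300 CPM with vehicle and at 690, 625 and 769 CPM with carmofur in U251T, from 170 to 674 counts per library. All 3 carmofur libraries lay far above the highest vehicle library. The log2 fold change was 1.52 ± 0.148 (SE), and with any library left out it lay between 1.41 and 1.65. CELSR2 was at 16.1, 3.90 and 23.0 CPM with vehicle and at 101, 66.8 and 128 CPM with carmofur, from 11 to 98 counts. Its log2 fold change of 3.09 ± 0.406 was the largest of the members, and it was 2.35 without vehicle library 2. Its vehicle ranges overlapped between the lines, unlike those of FAT1 and PRICKLE2, and with carmofur its U251T libraries stood above all 6 U251P libraries.

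PRICKLE2 was at 133, 109 and 110 CPM with vehicle and at 255, 205 and 292 CPM with carmofur in U251T, from 62 to 308 counts. The groups did not overlap, and the log2 fold change was 1.06 ± 0.164 (0.96 to 1.17 with a library left out). FAT4 was at 11.5, 4.61 and 14.1 CPM with vehicle and at 19.6, 14.8 and 26.1 CPM with carmofur, from 8 to 19 counts. The highest vehicle and the lowest carmofur library of FAT4 nearly touched, and the log2 fold change of 1.13 ± 0.451 was 0.61 without vehicle library 2. VANGL1 was the one member that stood lower, at 62.3, 71.3 and 68.9 CPM with vehicle and 50.5, 49.1 and 44.3 CPM with carmofur. Its log2 fold change was -0.49 ± 0.211, from 17 to 201 counts per library.

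The remaining members had too few counts in U251T to be fitted. For DCHS1 the vehicle libraries held 1, 2 and 0 counts and the carmofur libraries 2, 5 and 1, and FAT3 had 1 count over all 6 libraries. PRICKLE1 had 2 counts with vehicle and 2 with carmofur. VANGL2 had none, which at the depth of the 3 carmofur libraries allows up to 1.23 CPM. With carmofur the U251T levels fell into the order FAT1 (mean 695 CPM), PRICKLE2 (205 to 292 CPM in its libraries), CELSR2 (98.5), VANGL1 (48.0), FAT4 (20.2) and DCHS1 (3.10), and no range overlapped that of the next gene. CELSR2 stood above VANGL1 there, while with vehicle it stood below. The summed fibroblast markers given above moved with the same 2 groups, from 1957 to 2270 CPM with vehicle to 2596 to 2799 CPM with carmofur, and the summed glioma markers, mostly VIM, from 11730 to 14200 CPM to 7843 to 9908 CPM. The fibroblast sum was mostly COL1A1, which stood higher with carmofur, as did COL3A1. COL1A2 did not, at 442 to 446 CPM with vehicle and 370 to 445 CPM with carmofur. The glioma marker CD44 went against its sum, from 554 to 628 CPM with vehicle to 723 to 805 CPM with carmofur. What part these markers have in the levels of FAT1, CELSR2, PRICKLE2 and FAT4 was not tested.

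**Figure D2:**
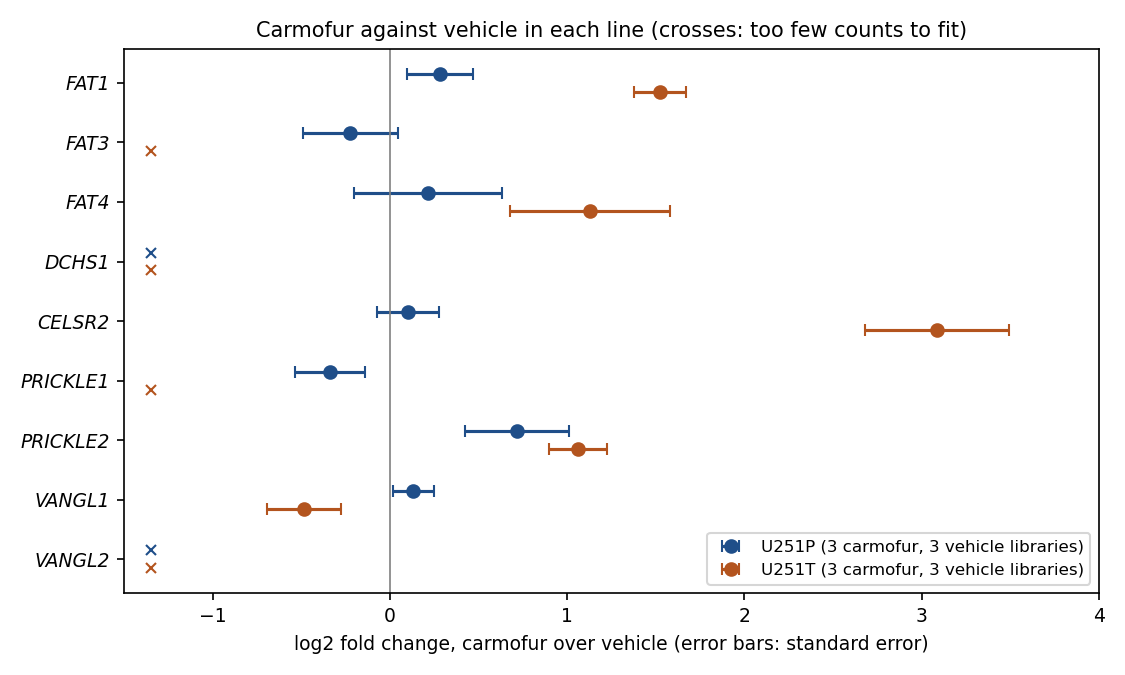
log2 fold change of each gene with carmofur over vehicle in U251P (blue) and U251T (orange), with bars of 1 SE and crosses at the left edge for genes with too few counts to fit. CELSR2 (3.09 against 0.10) and FAT1 (1.52 against 0.28) lie far apart in the lines, the bars of PRICKLE2 (1.06 and 0.72) meet, and VANGL1 lies below 0 in U251T only.

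Set side by side over all 12 libraries, the carmofur change in U251T minus that in U251P was 2.94 ± 0.410 (SE, log2 scale) for CELSR2 and 1.18 ± 0.252 for FAT1. For PRICKLE2 the difference was 0.27 ± 0.323, smaller than its standard error, and for FAT4 it was 0.86 ± 0.609. For VANGL1 it was -0.69 ± 0.257. These differences use the contrasts that chose the list and are given without a test, while edgeR called 4.28% of 13070 genes for the interaction, 1.8% with a higher and 2.49% with a lower value in U251T. The group means of PRICKLE2 went from 4.48 ± 0.500 to 7.23 ± 1.68 CPM (SD, n = 3) in U251P, and its 3 carmofur libraries lay above its 3 vehicle libraries in both lines.

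The neighbors of these genes in the pathway were taken from 6 lists, which leave out the 9 members. In U251P none of the tested genes of any list was called. Unadjusted p-values under 0.05 were found for SDC4, a heparan sulfate coreceptor (log2 fold change 0.26), for FJX1, the relative of the Golgi kinase that modifies FAT and Dachsous (0.45), and for TGFB2, a target of YAP and TAZ (0.39), each with an edgeR adjusted p of 0.999. Over all genes tested in U251P 402 of 11426 had such an unadjusted p with edgeR, so nothing is read from these genes. The medians of the 6 lists lay between -0.05 and 0.10, against 0 for all genes to 2 decimals.

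In U251T the target genes of YAP and TAZ, the coactivators that the Hippo kinases restrain, had more calls than the other 5 lists, and the difference between lists was not tested. Of 22 such genes 15 were tested, 5 rose, none fell, and the median log2 fold change was 0.51, against 8.88% of all genes called higher, 8.2% called lower and a median of 0.01. The summed fibroblast markers, mostly COL1A1, were higher with carmofur, and the summed glioma markers, mostly VIM, were lower. COL1A2 and CD44 did not move with their sums, as given above. The sums moved with the same 2 groups as this list and those that follow, and their part was not tested. CCN2, which encodes a secreted matrix protein, was at 1520, 833 and 1570 CPM with vehicle and 3040, 2450 and 3510 CPM with carmofur. The groups did not overlap, and it rose 2.30-fold (SE 0.181 on the log2 scale, edgeR adjusted p = 0.000139). CRIM1 rose by 0.95, GADD45A by 0.68 and CCDC80 by 0.63, with edgeR adjusted p-values of 0.0015, 0.00711 and 0.00713. GADD45A was no longer called without carmofur library 1 (edgeR adjusted p = 0.0517), nor CCDC80 without carmofur library 3 (0.0525). The fifth, CCN1, a relative of CCN2, rose by 0.51 (edgeR adjusted p = 0.0267) and is named after its value was seen. With a library left out the list held 3 to 8 calls, 3 without carmofur library 1 or carmofur library 3 and 8 without vehicle library 3 or carmofur library 2.

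Of 16 Hippo pathway components tested, 2 rose and none fell, a count near the 8.88% of all genes called higher. The median was 0.08, against 0.01 for all genes. AMOTL1, an angiomotin that binds YAP at cell junctions, was at 23.1, 16.7 and 47.7 CPM with vehicle and 86.6, 69.6 and 115 CPM with carmofur in U251T. It rose by 1.79 ± 0.306 (log2, edgeR adjusted p = 0.000482). FRMD6, a junction protein upstream of the Hippo kinases, rose by 0.76 ± 0.216 (edgeR adjusted p = 0.0207), a call lost without any 1 of 4 libraries: vehicle 2 and each carmofur library, where adjusted p ran from 0.0531 to 0.0826. DESeq2 did not call it either (adjusted p = 0.0947). YAP1, WWTR1 (TAZ) and LATS2, the transcriptional coactivators and a core kinase, had log2 fold changes of 0.10, 0.46 and 0.51 and were not called.

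Among the other core polarity genes 8 of 13 could be tested and 1 rose, which is near the 8.88% of all genes called higher, as are the counts of 1 in the effectors and the partners of FAT and Dachsous. FZD6, a Frizzled receptor of the core complex, was at 39.2, 18.1 and 35.3 CPM with vehicle and 47.4, 63.1 and 52.1 CPM with carmofur. Its log2 fold change of 0.91 ± 0.290 (edgeR adjusted p = 0.0369) was 0.55 without vehicle library 2, with an adjusted p of 0.202. The call was also lost without carmofur library 1, 2 or 3 (edgeR adjusted p = 0.0581, 0.152 and 0.0774) and with DESeq2 (0.137). The 1 of 11 effectors counted above was FUZ, a protein needed for cilia and for polarity. FUZ was at 12.3, 9.58 and 14.1 CPM with vehicle and 50.5, 43.6 and 57.3 CPM with carmofur. It passed the filter only through the carmofur group, where it was high. Its log2 fold change of 2.11 ± 0.293 is therefore given without a test. FUZ had at most 3 counts in any U251P library. The small GTPases RHOA, RAC1 and CDC42 of the same list had log2 fold changes of -0.04, -0.23 and -0.26 and were not called.

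Of the partners of FAT and Dachsous 1 of 8 rose, HOMER1, a scaffold protein of the Homer family, by 1.08 ± 0.321 (edgeR adjusted p = 0.027). That call was lost without vehicle library 2 (0.72, adjusted p = 0.158), without carmofur library 1, without carmofur library 2 and with DESeq2 (adjusted p = 0.132). None of the 5 tested noncanonical Wnt ligands and receptors was called. The glypican GPC4, the syndecan SDC4 and the ligand WNT5A had log2 fold changes of 0.72, 0.93 and -0.45, with edgeR adjusted p-values of 0.0661, 0.0993 and 0.0805. Each was called in some alternatives: all 3 with the replicate number as a block, GPC4 without carmofur library 2 (edgeR adjusted p = 0.0401), SDC4 without carmofur library 1 (0.0398), and WNT5A without vehicle library 2 (0.0245), without carmofur library 1 (0.0491) and without a filter (0.0462).

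**Figure D3:**
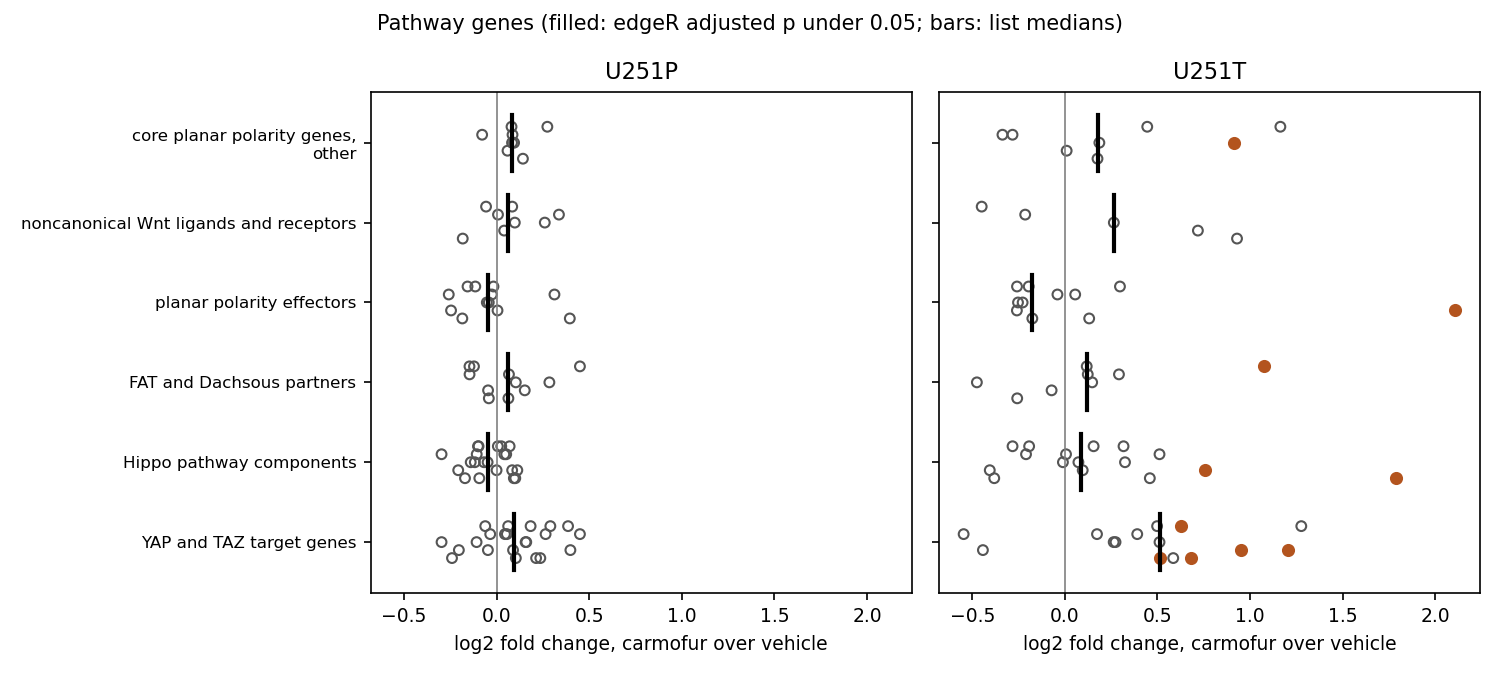
log2 fold change of each tested gene of the 6 pathway lists with carmofur over vehicle, U251P at left and U251T at right, with filled points for genes with an edgeR adjusted p under 0.05 and a bar at the median of each list. No point is filled in U251P, and in U251T the filled points all lie above 0, 5 of them among the YAP and TAZ target genes. The filled point of the effectors is FUZ, which passed the filter only through the carmofur group.

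To find the genes whose pattern was most like that of FAT1 and of PRICKLE2, log2 CPM was centered within each line, and the root mean square difference over the 12 libraries was taken for 5869 genes tested in both lines. The libraries share their line and drug, so a small difference is a description of the shape alone. For FAT1 the nearest genes were FILIP1L (0.203), LAMB1 (0.220), COL8A1 (0.223), IVD (0.223) and ALDH9A1 (0.223), against a median of 0.644 over all genes. LAMB1 and COL8A1 encode extracellular matrix proteins, and IVD and ALDH9A1 encode mitochondrial and cytosolic dehydrogenases. FILIP1L, a filamin A interacting protein, stood at 4.34 to 5.77 CPM in U251P vehicle and at 337 to 511 CPM in U251T vehicle. LAMB1, COL8A1 and ALDH9A1 had lower vehicle means in U251T than in U251P, unlike FAT1. IVD had vehicle means of 36 CPM in U251T and 38.4 CPM in U251P, with overlapping ranges.

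For PRICKLE2 the nearest genes were NEXN (0.166), THBS1 (0.199), KSR1 (0.200), MAML2 (0.227) and DCUN1D3 (0.236), against a median of 0.542. NEXN encodes an actin binding protein, THBS1 a secreted matrix protein and MAML2 a Notch coactivator. All 5, like PRICKLE2, had a higher mean with carmofur in both lines, which the choice by likeness to PRICKLE2 favors. For THBS1 the means were 216 CPM with vehicle and 293 CPM with carmofur in U251P, and 283 and 485 CPM in U251T. FAT1 was the 249th nearest gene of PRICKLE2 (0.346), and PRICKLE2 the 123rd of FAT1. CELSR2 was far from both, with differences of 0.694 from FAT1 and 0.873 from PRICKLE2, each above the median of all genes.

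**Figure D4:**
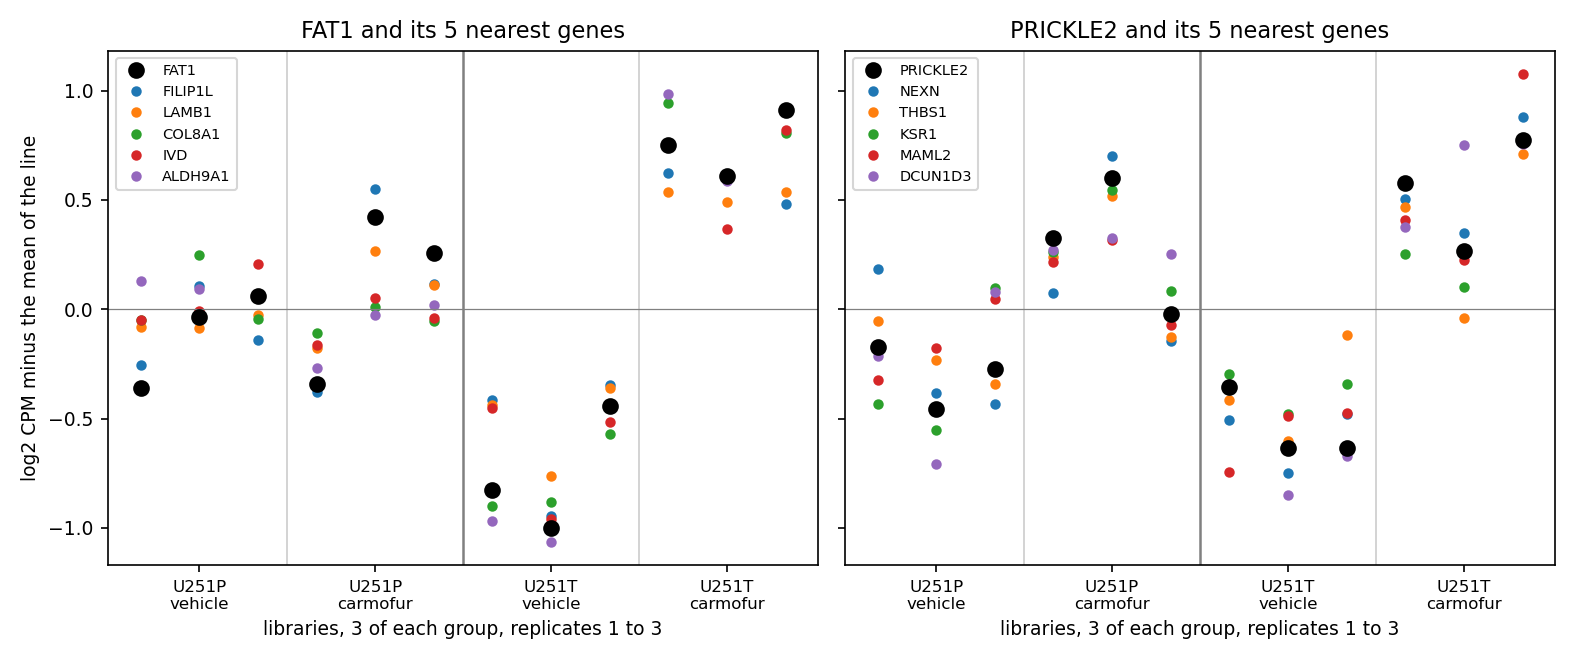
log2 CPM minus the mean of the line in each of the 12 libraries, for FAT1 (left, black) and PRICKLE2 (right, black) with their 5 nearest genes in color. FAT1 lies apart between vehicle and carmofur in U251T and not in U251P, while PRICKLE2 and its neighbors lie mostly higher with carmofur in both lines.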

How the data were processed

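The 12 libraries were made with the QuantSeq FWD kit, which reads the 3′ ends of transcripts. The authors deposited 1 table of raw counts for all libraries, with Ensembl identifiers in rows and no scaling. The submitters' processing notes name hg38, while the counting tool, annotation, use of strand and treatment of PCR copies are not given in the sources used here. Symbols were found for 56104 of 60107 identifiers (99.8% of counts), and positions were taken from GENCODE release 29.

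Counts were tested with the quasi-likelihood test of edgeR 4.0.16 in R 4.3.3, with TMM, filterByExpr and Benjamini-Hochberg adjustment at 0.05 over all genes tested: carmofur against vehicle in each line, U251T against U251P in vehicle, and the interaction over all 12 libraries. CPM are counts scaled to a library total of 1000000. An exact permutation test of 3 against 3 libraries cannot go below 0.1 and was not used. Intervals and limits from 3 counts cover counting error only. The code was tested on simulated counts.

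The members and the lists were chosen with earlier results of these data known. Named genes were all members, up to 4 genes per list and drug contrast with the smallest p-values among those called or, with none called, those with an unadjusted p under 0.05, and the 5 genes nearest to FAT1 and to PRICKLE2 (log2 CPM with a prior count of 2). Other genes named from a list were chosen after their values were seen. Alternatives were DESeq2 1.42.0, upper-quartile scaling, no filter, a minimum of 10 counts in each library, a replicate block, all 12 libraries in 1 fit, a threshold of 0.1 and each library left out. Figures were drawn in Python 3.11.15 with pandas 2.3.3 and matplotlib 3.10.9.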

Additional observations from a re-analysis of the deposited data

Results flagged for a closer look

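Among the members and the named list genes, 4 were picked by an edgeR adjusted p under 0.05 for the interaction term. In each the carmofur change was higher in U251T than in U251P. The pick does not follow size alone. FAT3 (3.49 ± 2.71, SE), FUZ (1.89) and PRICKLE1 (1.12 ± 1.51), with few or no counts in 1 line, had larger differences than CCN2 and were not picked. Over all 12 libraries edgeR called 4.28% of 13070 genes for this term. All 4 were named with their U251T values known, so the differences are given as a description without a test. On the log2 scale the difference was 1.18 ± 0.252 (SE) for FAT1 and 2.94 ± 0.410 for CELSR2. It was 1.85 ± 0.330 for AMOTL1 and 1.07 ± 0.267 for CCN2, where it ranged from 1.53 to 2.11 and from 0.83 to 1.23 with a library left out. The genes nearest to FAT1 and to PRICKLE2 were not part of this count. Of these, COL8A1 (1.60 ± 0.222), IVD (1.32 ± 0.272) and ALDH9A1 (1.80 ± 0.255) had larger differences than FAT1, and the others had smaller ones. The line and the features that set the U251T libraries apart cannot be told apart here. Groups of 3 libraries are too small for a check of single outlying libraries.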

How the results depend on the processing

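In U251P the count of genes called moved from 0 to 19 without a filter, to 1 with the replicate number as a block, and to 0 to 1 with a library left out. In U251T it moved from 1231 to 2078 with the block and ranged from 837 to 1195 with a library left out. Between the lines it moved from 10474 to 3737 with at least 10 counts in every library, where 4823 genes were tested, and ranged from 10418 to 11028 with a library left out. For the interaction it moved from 560 to 1156 with the block and ranged from 367 (without U251T carmofur library 1) to 721. Whether replicate numbers pair the libraries is not settled by these values. Same-numbered deviations correlated across genes at 0.22, -0.03 and 0.28 in U251P and at 0.08, 0.33 and 0.07 in U251T. Between the lines they correlated at -0.04, 0.01 and 0.01. Only some libraries correlated best with their own number, so pairing in part was neither shown nor excluded. The block changed no call of a member between the lines. With carmofur in U251T it brought FAT4 (1.11), given here without a test, under the adjusted threshold. Among named list genes it added GPC4 (0.67), WNT5A (-0.44) and SDC4 (0.83) in U251T. VANGL1 passed the threshold for the interaction in 1 alternative.

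Members changed sign in 5 of 335 alternatives. With a library left out, FAT3 in U251P ranged from -0.48 to 0.19 (above 0 without vehicle library 3), FAT4 in U251P from -0.19 (without carmofur library 2) to 0.47, and VANGL1 between the lines from -0.042 (without U251T vehicle library 2) to 0.20. VANGL1 between the lines was -0.20 without a filter and -0.47 with at least 10 counts (edgeR adjusted p = 0.00894). CELSR2 between the lines was called in 6 of 12 alternatives, with adjusted p from 0.000927 to 0.769. The cause was not tested. Scaling moved the median of all genes between the lines from -0.33 to -0.48 (DESeq2) and in the interaction from -0.02 to 0.17. Depth limits VANGL2, DCHS1, FAT3 and PRICKLE1 in U251T.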
